A study of Mus musculus with 22 samples.

Results

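The Zfp36 family comprised 3 members here, Zfp36, Zfp36l1 and Zfp36l2, taken by name from 21938 protein-coding genes of the annotation, a rule that uses no measured value, although the family was picked with earlier results of these data known. The peaks described were all H3K27ac peaks that overlapped the gene body of a member or lay within 50 kb of it, which gave 45 of 23410 peaks in replicate 1, 45 of 25963 in replicate 2 and 42 of 23758 in replicate 3. Zfp36 (also called tristetraprolin) and its paralogues encode RNA-binding proteins with a tandem pair of CCCH zinc fingers. They bind AU-rich elements in the 3′ untranslated region of short-lived mRNAs and recruit the CCR4-NOT deadenylase, after which the mRNA is shortened from its tail, decapped and degraded. In haematopoietic cells the family is known for limiting the output of cytokine and cell cycle mRNAs, and Zfp36 itself is known as an immediate-early gene induced by growth factors and inflammatory signals. A further mouse gene of the family, Zfp36l3, is known from placenta and had no peak near its start in any library.

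The 3 libraries measured H3K27ac, a histone acetylation found at active promoters and enhancers, by ChIP-seq in BcorΔE9-10 KL cells, and were 3 of the series' 22 samples. KL cells are bone marrow myeloid progenitors sorted as Lin- cKit+ Sca1-. All 3 libraries came from C57BL/6 male mice of the genotype scl-Cre-ERT +; Bcorfl/y, given tamoxifen intraperitoneally at 3 to 6 months of age, 1 mg per day for 5 days, and the cells were sorted 20 weeks later. The Cre transgene is driven by stem cell sequences of Scl (Tal1), so that exons of Bcor were removed in stem cells and the KL cells carried the deletion by descent, with no measure here of how many cells did. H3K27ac in BcorWT cells was not analysed here, so the values below carry no comparison of genotypes, and the mice behind the libraries share genotype, treatment and sex. The labelled cell type was checked against marker genes. All 8 progenitor markers had a start-site peak in every library (Kit 9.77 ± 0.16-fold, Mpo 6.69 ± 1.52-fold over background, mean ± SD, n = 3). None of 7 markers of cells removed by the gate had one in more than 1 library, and none of 5 non-haematopoietic markers had one in any.

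Values are fold enrichment, the fragment density at the summit of a peak over the local background as set by the peak caller. The peak caller adds a constant of 1 to both terms before dividing, so fold enrichment is below the plain quotient. Depth was inferred from the peak lists as about 18.04 M, 18.92 M and 19.26 M fragments in replicates 1, 2 and 3, assuming the fragment length of 200 bp that the narrowest peaks show. Replicate 3 had the highest median fold enrichment over all its peaks (5.53, against 4.92 and 4.72), so members were compared by ratios within a library. A peak was called an own start-site peak of a member if any part of it lay within 2.5 kb of a start of any of the member's transcripts, a start-site peak of another gene if it lay that close only to another annotated start, and distal otherwise. Distances below run from the RefSeq start, negative upstream and positive downstream.

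All 3 members lie on the minus strand (GRCm38). Zfp36 (ENSMUSG00000044786.6) spans chr7:28376784-28380253 and its window holds the starts of 6 other protein-coding genes, so that 43.6% of the window was more than 2.5 kb from any start. Zfp36l1 (ENSMUSG00000021127.7) spans chr12:80107754-80113013, with no other protein-coding start in the window and 68.6% of it free of starts. Zfp36l2 (ENSMUSG00000045817.8) spans chr17:84183931-84187947, with 1 other protein-coding start, that of Thada, and 75.4% of the window free of starts. GENCODE starts the longest Zfp36 transcript 1025 bp upstream of the RefSeq start, whereas the other members start at the same base in both annotations.

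The sequences under the peaks that the results below turn on are given 5′ to 3′ on the strand of the member, 200 bases centred on the mean summit of the 3 libraries for peaks and the 250 bases before the start for the promoter of Zfp36l1 (RefSeq, GRCm38.p6). The upstream peaks are the own start-site peak of Zfp36 with the most fragments, the strongest peak of Zfp36l1 and a Zfp36l2 peak placed within 7 bp in the 3 libraries. The distal regions are those nearest to Zfp36 and Zfp36l2 of the ones found in all libraries. The Zfp36l1 promoter is shown because it lay outside the peaks in replicates 1 and 3 and nearly all of it in replicate 2. RefSeq promoter entries matched for Zfp36 and Zfp36l1, and that of Zfp36 lies within an annotated exon of the longer transcript and is not printed. Capitals mark matches to any of 12 motifs searched on both strands: the AP-1 motif (TGANTCA), the cyclic AMP response element (TGACGTCA), the GC box (GGGCGG), the CCAAT box (its own letters), the TATA box (TATAAA), the motifs of GATA factors (AGATAA), RUNX factors (TGTGGT), ETS factors (CCGGAAG) and EGR factors (GCGTGGGCG), the E-box (CACGTG), the NF-kB site and the CArG box.
Zfp36 upstream peak, chr7:28381605-28381804, minus strand: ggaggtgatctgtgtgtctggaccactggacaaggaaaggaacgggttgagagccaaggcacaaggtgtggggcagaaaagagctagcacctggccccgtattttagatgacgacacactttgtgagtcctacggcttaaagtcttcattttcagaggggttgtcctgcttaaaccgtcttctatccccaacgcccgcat
Zfp36 downstream distal region, chr7:28375300-28375499, minus strand: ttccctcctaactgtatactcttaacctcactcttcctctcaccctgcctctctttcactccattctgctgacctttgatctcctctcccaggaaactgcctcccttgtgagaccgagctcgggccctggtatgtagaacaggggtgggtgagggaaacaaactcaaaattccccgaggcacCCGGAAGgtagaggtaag
Zfp36l1 promoter, chr12:80113014-80113263, minus strand: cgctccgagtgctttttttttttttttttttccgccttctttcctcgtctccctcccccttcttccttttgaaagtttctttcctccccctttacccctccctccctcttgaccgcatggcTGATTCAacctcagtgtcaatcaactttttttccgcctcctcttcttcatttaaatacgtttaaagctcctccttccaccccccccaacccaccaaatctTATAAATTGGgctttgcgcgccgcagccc
Zfp36l1 upstream peak, chr12:80115547-80115746, minus strand: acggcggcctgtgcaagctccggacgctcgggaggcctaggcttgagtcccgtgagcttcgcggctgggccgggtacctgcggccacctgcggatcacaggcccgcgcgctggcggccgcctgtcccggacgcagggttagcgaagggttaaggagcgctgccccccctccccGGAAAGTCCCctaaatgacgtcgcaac
Zfp36l2 upstream peak, chr17:84188270-84188469, minus strand: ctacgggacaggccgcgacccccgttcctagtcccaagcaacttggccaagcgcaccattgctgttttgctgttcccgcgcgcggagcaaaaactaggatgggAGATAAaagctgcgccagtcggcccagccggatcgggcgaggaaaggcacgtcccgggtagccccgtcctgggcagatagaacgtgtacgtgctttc
Zfp36l2 downstream distal region, chr17:84182094-84182293, minus strand: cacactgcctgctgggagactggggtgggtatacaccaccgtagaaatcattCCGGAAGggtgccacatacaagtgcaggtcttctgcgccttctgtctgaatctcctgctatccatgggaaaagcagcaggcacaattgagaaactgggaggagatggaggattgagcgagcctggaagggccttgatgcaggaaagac
The Zfp36 upstream peak held none of the 12 motifs. The Zfp36l1 upstream peak held 1 NF-kB match, which 4.15% of 14280 windows of the same length at regions found in all 3 libraries also held. The Zfp36l2 upstream peak held 1 GATA match (3.62% of those windows), and the distal regions downstream of Zfp36 and of Zfp36l2 each held 1 ETS match (5.20%). In the Zfp36l1 promoter an AP-1 match (6.75% of 32851 RefSeq promoters of 250 bases) lay upstream of a TATA box (12.4%) that overlapped a CCAAT box on the other strand (33.8%). The unprinted Zfp36 promoter held 1 GC box (32.7%), 1 ETS match (6.91%) and 1 CArG box (1.47%), the element through which serum response factor is known to act on immediate-early genes. A match describes the letters and not binding.

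The question asked of the start sites was how strongly each member was acetylated. All 3 members had own start-site peaks in all 3 libraries, as did 43.9% of protein-coding genes. For Zfp36 the highest fold enrichment was 14.01 in replicate 1, 10.4 in replicate 2 and 15.5 in replicate 3 (13.3 ± 2.59, SD, n = 3). For Zfp36l1, which is known to be needed with Zfp36l2 for normal lymphocyte development, it was 13.1, 10.8 and 15.5 (13.1 ± 2.34). These values overlapped almost completely between the 2 genes, and replicate 2 was the lowest and replicate 3 the highest for both. For Zfp36l2, known to be needed for haematopoietic stem cell maintenance, it was 9.57, 8.48 and 14.4 (10.8 ± 3.13), lowest of the family in each library, although its replicate 3 exceeded the replicate 1 and 2 values of the other members.

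Within libraries, Zfp36 and Zfp36l1 differed by 0.02 ± 0.08 on the log2 scale (mean of Zfp36 over Zfp36l1 ± SD, n = 3), with Zfp36 higher in 1 library, and the exact sign-flip permutation test gave p = 1 (two-sided). Zfp36 exceeded Zfp36l2 by 0.32 ± 0.22 (log2; 1.25-fold, 3 of 3 libraries), with an exact p = 0.25 (0.375 adjusted over the 3 pairs). Zfp36l1 exceeded Zfp36l2 by 0.30 ± 0.18 (log2; 1.23-fold, 3 of 3 libraries), also with an exact p = 0.25 (0.375 adjusted). The smallest p that 3 libraries allow in this test is 0.25, so no order within the family could pass 0.05.

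Protein-coding genes with an own start-site peak had a median of 9.07, 9.26 and 10.7-fold in the 3 libraries. Among them the members ranked in the middle to upper part at the distance of 2.5 kb. Zfp36 stood at percentiles 75.5, 57.7 and 73.2 in replicates 1, 2 and 3. Zfp36l1 stood at 71.9, 60.1 and 73.2, and Zfp36l2 at 53.8, 43.8 and 68.97. With peaks allowed only within 1 kb of a start, Zfp36l1 stood lower, at 23.7, 28.9 and 33.4. At that distance Zfp36 (75.3, 57.6 and 73.1) and Zfp36l2 (53.6, 43.7 and 68.9) stood nearly as before. By extent the members ranked higher than by height. Own start-site peaks of Zfp36 covered 6402, 3872 and 5380 bp, at the 99.95, 99.16 and 99.85 percentile of 9637 genes with such peaks in all libraries. Those of Zfp36l1 covered 2900, 2785 and 3200 bp (percentiles 96.7 to 97.7) and those of Zfp36l2 covered 3448, 3766 and 3918 bp (percentiles 98.84 to 99.01). Of the Zfp36l1 bases, 1395, 1382 and 1378 bp are 1 upstream peak that also covers the start of the long non-coding RNA gene 1300014J16Rik. The percentile of Zfp36l1 without that peak was not tested. In replicate 1 the Zfp36 total includes a 1008 bp peak at +3.05 kb, between genes. Its counterparts in replicates 2 and 3 (976 and 1012 bp) were classed as start-site peaks of another gene and left out. These percentiles take no account of the number of starts, which is 2 for Zfp36, 4 for Zfp36l1 and 1 for Zfp36l2.

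**Figure D1:**
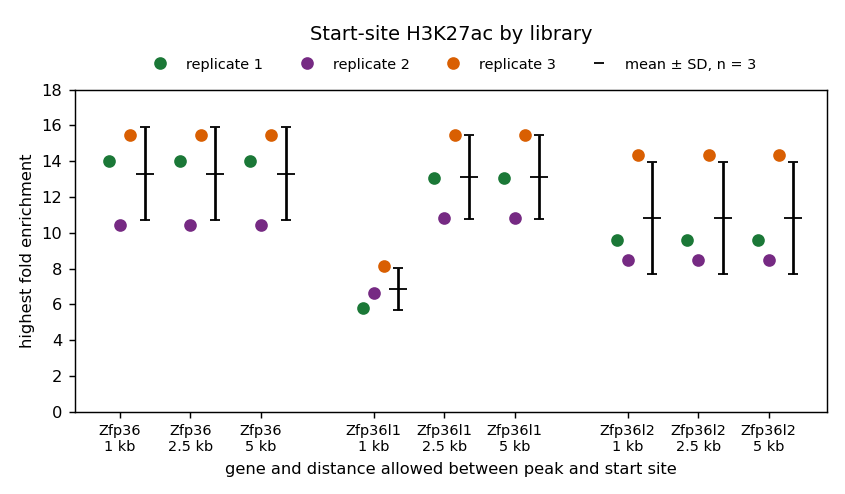
Highest fold enrichment of the start-site peaks (vertical axis, linear) for each gene when a peak may lie up to 1, 2.5 or 5 kb from a start (horizontal axis). Points are libraries and bars give mean ± SD (n = 3). Only Zfp36l1 moved with the distance, from 6.85 ± 1.18 at 1 kb to 13.1 ± 2.34 at 2.5 kb.

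The place of the signal differed between the members. For Zfp36 the highest enrichment lay just inside the gene, at +192, +208 and +193 bp, in an annotated exon of Zfp36 that there overlaps an exon of Gm44710. For Zfp36l1 the strongest peak lay upstream, with summits at -2597, -2670 and -2631 bp, and no summit within 1 kb of the start exceeded 5.80, 6.62 and 8.13-fold. With peaks allowed only within 1 kb of a start, Zfp36l1 was below Zfp36 in every library (Zfp36 over Zfp36l1 1.94-fold, log2 0.95 ± 0.31, 3 of 3 libraries, exact p = 0.25, 0.25 adjusted). Zfp36l1 was then also below Zfp36l2 in all 3 libraries (log2 of Zfp36l1 over Zfp36l2 -0.63 ± 0.24, exact p = 0.25, 0.25 adjusted), the opposite of the order at 2.5 kb.

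The upstream Zfp36l1 peak spanned 1395, 1382 and 1378 bp in the 3 libraries, with 47, 53 and 62 fragments at its summit. It covers the start of the long non-coding RNA gene 1300014J16Rik, which is transcribed away from Zfp36l1 and begins at -2850 bp. The summits lay 253, 180 and 219 bp from that start, on the side facing Zfp36l1. Which of these genes the peak belongs to cannot be told apart from its position. Nearer the start, a weaker peak at -786, -823 and -778 bp had 5.80, 6.62 and 8.13-fold enrichment, and peaks just inside the gene had 4.56, 5.00 and 6.47-fold. The start of Zfp36l1 itself fell inside a peak in replicate 2 only, and lay 25 and 8 bp outside one in replicates 1 and 3.

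For Zfp36l2 the start lay inside a peak in all 3 libraries, and the peak reached far into the gene. Of the 2500 bp downstream of the start, 2358, 2500 and 2500 bp were covered, against 452, 750 and 907 bp of the 2500 bp upstream. A separate upstream peak was placed within 7 bp in the 3 libraries, at -418, -422 and -425 bp, with 9.57, 8.09 and 11.4-fold enrichment. Highest enrichment within 1 kb downstream was 9.32, 8.48 and 14.4-fold, so upstream and downstream summits of Zfp36l2 were of like height in replicates 1 and 2, whereas the downstream one was higher in replicate 3.

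For Zfp36, covered bases were 2344, 1663 and 2246 bp downstream and 1743, 1059 and 1994 bp upstream of the start. For Zfp36l1 the balance was reversed, with 687, 536 and 824 bp downstream and 1373, 1398 and 1580 bp upstream. From the RefSeq start, downstream cover exceeded upstream cover in every library for Zfp36 and Zfp36l2 and was below it in every library for Zfp36l1. For Zfp36 this order depends on the start used. Cover from its GENCODE start, 1025 bp further upstream, was not tested, so the contrast with Zfp36l1 holds for the RefSeq start alone.

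**Figure D2:**
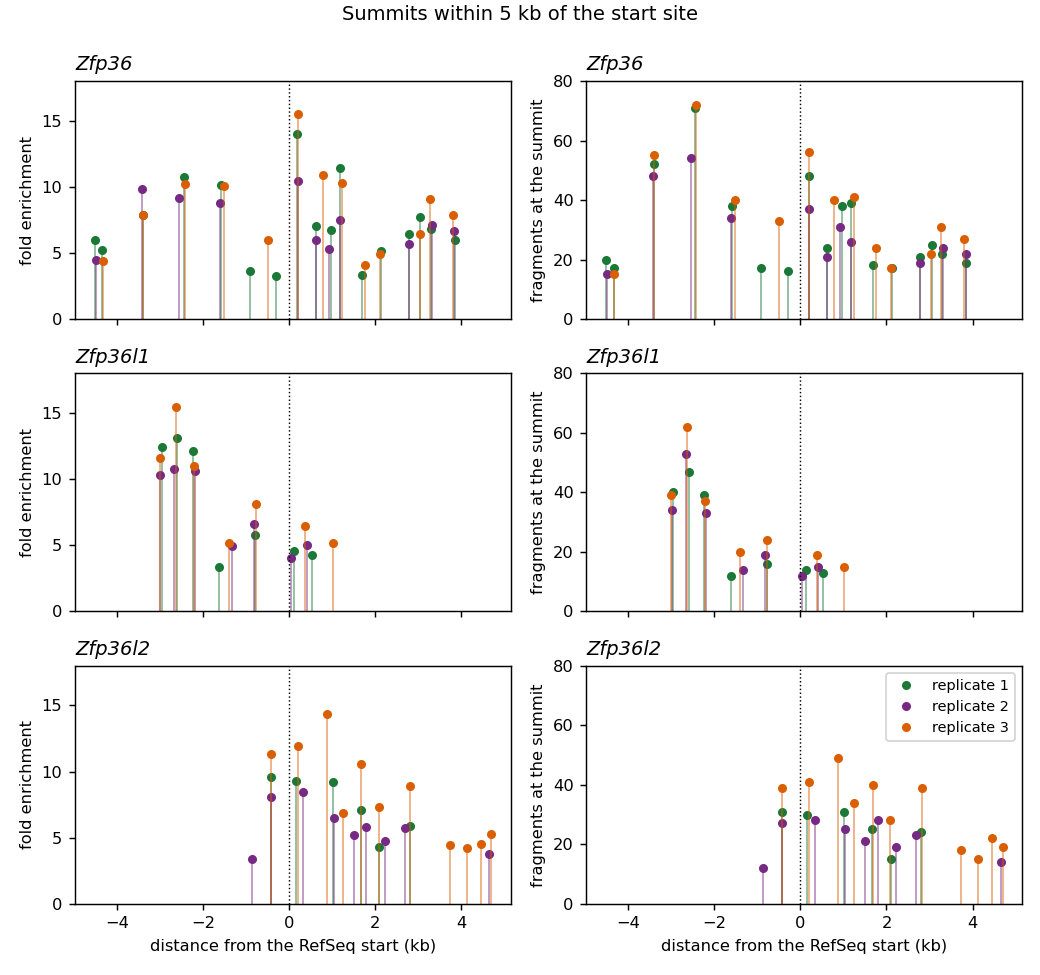
Summits within 5 kb of the RefSeq start (horizontal axis, kb, positive downstream), by fold enrichment (left) and by fragments at the summit (right), with 1 colour per library. The highest fold enrichment of Zfp36 lies just downstream of the start, its highest fragment number between -2.43 and -2.55 kb, and the tallest Zfp36l1 summits lie about 2.6 kb upstream on both scales.

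Fold enrichment and fragment number picked different peaks for Zfp36. The summit just inside the gene had 48, 37 and 56 fragments over a local background of 2.497, 2.639 and 2.620. The upstream peak, at -2449, -2553 and -2426 bp, had 71, 54 and 72 fragments over a background of 5.719, 4.999 and 6.000. With the constant added to both terms, and the fragments of replicate 3 scaled, its fold enrichment was 10.7, 9.17 and 10.2. The upstream peak therefore held more fragments in 3 of 3 libraries and had the lower fold enrichment in 3 of 3 libraries, and the local background, which the peak caller takes from the control, was higher there in each. For Zfp36l1 the same upstream summit had both the most fragments and the highest enrichment in every library. For Zfp36l2 the most fragments were 31, 28 and 49, the fewest of the family.

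Each strongest start-site peak lay within 2.5 kb of the start of a non-coding gene on the other strand. That of Zfp36 lay within 2.5 kb of the start of Gm44710, an antisense gene with a start 0.248 kb inside Zfp36. That of Zfp36l1 lay as close to the start of 1300014J16Rik, and that of Zfp36l2 to AC132455.1, an antisense gene with a start 2.191 kb inside Zfp36l2. In replicate 1 the strongest Zfp36l2 peak lay upstream of Zfp36l2 and did not cover the start of AC132455.1. This held for 3 of 3 members in all libraries, and for 11.2% of the 9637 protein-coding genes with an own start-site peak in all libraries. The feature was chosen after the values were seen.

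The question asked of the rest of each window was whether the members also had distal acetylation. Zfp36 had 19, 19 and 18 peaks in its window, of which 6, 4 and 5 were own start-site peaks, 8, 11 and 9 were start-site peaks of other genes and 5, 4 and 4 were distal. Zfp36l1 had 7, 4 and 6 peaks, of which 5, 3 and 4 were own and 2, 1 and 2 lay at the non-coding gene 2310015A10Rik. It had no distal peak in any library while starts of non-coding genes were counted. With protein-coding starts alone it had 1.67 distal peaks on average and 1 distal region in all 3 libraries, and with peaks allowed within 1 kb of a start it had 1 distal peak on average. Zfp36l2 had 19, 22 and 18 peaks, of which 3, 3 and 2 were own, 5, 6 and 4 were near other starts and 11, 13 and 12 were distal.

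Per 10 kb of window free of starts, distal peaks numbered 1.53 ± 0.13 for Zfp36l2, 0.96 ± 0.13 for Zfp36 (mean ± SD, n = 3) and 0 for Zfp36l1. The ranges of the members did not overlap. Among peaks with a −log10 q of at least 5 the order of Zfp36 and Zfp36l2 turned, with 0.74 ± 0.13 for Zfp36 (4, 3 and 3 distal peaks) and 0.60 ± 0.07 for Zfp36l2 (5, 4 and 5 distal peaks), again without overlap. The median gene with a start-site peak had 0 distal peaks in its window, and Zfp36l2 stood at percentiles 99.1, 99.1 and 99.2, Zfp36 at 95.1, 90.2 and 92.3 and Zfp36l1 at 29.4, 26.8 and 29.7. Genes with equal counts were placed at the middle of their tied ranks. Zfp36l1, with 0 distal peaks, was tied with the median gene, and no gene could have fewer. These percentiles are not adjusted for how much of each window is free of starts.

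**Figure D3:**
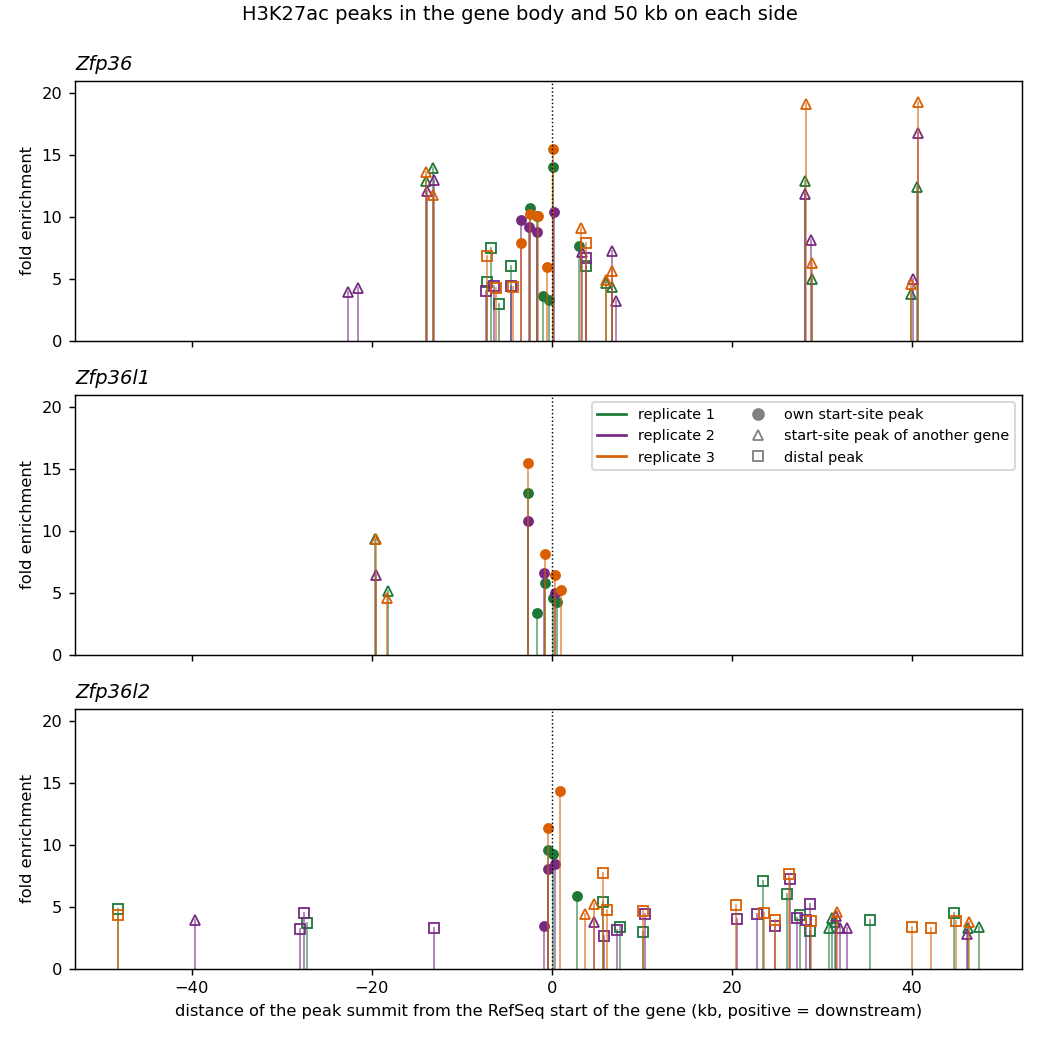
Peaks in the gene body and 50 kb on each side of Zfp36, Zfp36l1 and Zfp36l2, at the distance of their summit from the RefSeq start (horizontal axis, kb, positive downstream) and with their fold enrichment (vertical axis). Colours are libraries, filled circles own start-site peaks, triangles start-site peaks of other genes and squares distal peaks. Strong triangles flank Zfp36, Zfp36l1 has no square, and squares of Zfp36l2 lie mostly downstream.

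To ask how repeatable distal acetylation was, peaks that overlapped between libraries were joined into 1 region. At least 1 distal region with a peak in all 3 libraries lay within 50 kb of Zfp36 and of Zfp36l2, 2 of the 3 members, as for 21.8% of the 9637 genes. Zfp36 had 4 distal regions and all 4 were found in every library. Zfp36l2 had 21, of which 4 were found in all libraries, 7 in 2 and 10 in 1. Over the whole genome 16.7% of 14757 distal regions were found in all 3 libraries and 64.5% in 1.

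The distal region nearest to the start of Zfp36 lay at +3.83 kb, between genes and 2.55 kb from the start of Plekhg2, which encodes a guanine nucleotide exchange factor. It had 6.01, 6.65 and 7.87-fold enrichment with 19, 22 and 27 fragments. The other 3 lay upstream inside an intron of the antisense gene Gm44710. The region at -4.45 kb had 6.00, 4.45 and 4.37-fold, the one at -6.48 kb had 7.51, 4.39 and 4.29-fold and the one at -7.24 kb, which overlaps an exon of Med29, had 4.779, 4.001 and 6.882-fold. Replicate 1 was the highest at -4.45 and -6.48 kb and replicate 3 at -7.24 and +3.83 kb.

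For Zfp36l2 the strongest region found in all libraries lay at +26.3 kb, between genes, with 6.04, 7.23 and 7.63-fold enrichment and 20, 22 and 24 fragments. The region at +5.75 kb had 5.40, 2.67 and 7.75-fold, the widest spread of the 4, with 25, 23 and 40 fragments. The region at +10.2 kb had 3.00, 4.45 and 4.66-fold and the one at +28.7 kb 3.06, 5.26 and 3.91-fold. All 4 lay downstream of the gene, as did 16 of its 21 distal regions. Regions of Zfp36l2 found in 1 library were weaker than those found in all (median 3.81 against 4.67-fold), and the distal peaks with the fewest fragments had 8, 9 and 10, close to the fewest in any peak of the libraries (8, 8 and 9). A peak missing from a library at this height may be present below its threshold, so absence was not detectable at this depth.

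**Figure D4:**
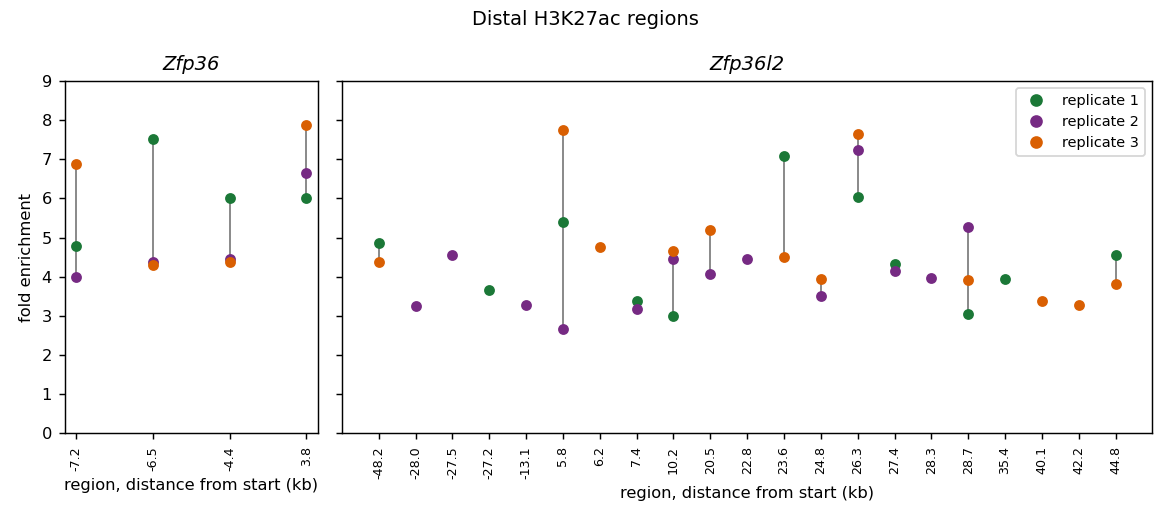
Fold enrichment (vertical axis) of each distal region of Zfp36 (left) and Zfp36l2 (right), ordered by distance from the RefSeq start (horizontal axis, kb), with 1 point per library that had a peak there and a grey line from the lowest to the highest. All 4 Zfp36 regions have 3 points, whereas 10 of the 21 Zfp36l2 regions have 1.

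Start-site peaks exceeded the best distal peak of the same library for both members that had one. For Zfp36 the best distal peak had 7.51, 6.65 and 7.87-fold, and the start-site level was higher by 0.84 ± 0.17 on the log2 scale (1.79-fold, 3 of 3 libraries, exact sign-flip permutation p = 0.25). For Zfp36l2 the best distal peak had 7.09, 7.23 and 7.75-fold, at +23.5, +26.4 and +5.73 kb, so a different region led in each library. Its start-site level was higher by 0.52 ± 0.34 (log2; 1.43-fold, 3 of 3 libraries, exact p = 0.25). Both adjusted p-values were 0.25, the smallest possible here. The best distal peaks of Zfp36 and Zfp36l2 were of like height (7.34 ± 0.63 and 7.36 ± 0.35-fold).

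The neighbours differed as much as the distal peaks. Within the Zfp36 window the start-site peaks of Supt5, a transcription elongation factor gene, had 16.2 ± 3.47-fold enrichment (mean ± SD, n = 3), those of Rps16, a ribosomal protein gene, 14.7 ± 3.94-fold, and those of Samd4b 14.2 ± 1.22-fold. Med29, a Mediator subunit gene, and Paf1, an elongation factor gene, share peaks and had 13.5 ± 0.51-fold. Only Plekhg2 (5.86 ± 1.28-fold) was lower than Zfp36 among these 6 neighbours in every library. Thada, in the Zfp36l2 window, had 9.86 ± 2.03-fold, close to Zfp36l2. In the Zfp36l1 window 2310015A10Rik had 8.38 ± 1.69-fold.

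Neighbouring peaks were stitched, at the distance stated with the processing, and the stitched regions ranked by fold enrichment times length, as is done to find super-enhancers, long clusters of acetylated elements. Regions past the point where the ranked curve reaches a slope of 1 numbered 1383, 1083 and 1190, a set built from peaks and not from read density over input, with start-site peaks kept. The region that held the start-site peaks was past that point in 3 of 3 libraries for Zfp36 and Zfp36l2 and in replicates 1 and 3 for Zfp36l1. So 3 of 3 members passed in at least 2 libraries, against 19.0% of the 9637 genes, a count given as a description since the family was picked with earlier results known. The call of Zfp36l1 was lost when regions were ranked by summed fold enrichment (0 of 3 libraries) and with peaks of a −log10 q of at least 5 (1 of 3), and it passed in 1 of 2 libraries without replicate 1 or without replicate 3.

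Zfp36 ranked 4th of 11779, 19th of 12327 and 18th of 11525 regions. Its region was 21.8, 30.5 and 21.5 kb long and also held the starts of Med29, Paf1 and Plekhg2. Own start-site peaks made up 62.9, 48.0 and 59.5% of the signal, start-site peaks of other genes 25.5, 42.5 and 29.7% and distal peaks 11.5, 9.43 and 10.9%. The peak at +3.05 kb counted as own in replicate 1. Its counterparts at +3.31 and +3.28 kb in replicates 2 and 3 counted to other genes. In replicate 2 the share of other genes also held peaks in exons of Samd4b at -21.6 and -22.6 kb, which lengthened the region. The shares therefore differ between libraries in part through how peaks were classed. Zfp36l2 ranked 544th, 94th and 28th. Its region was 10.8 kb long in replicate 1 and 46.1 and 47.5 kb in replicates 2 and 3. The gap between peaks that began 10.2 to 10.5 kb downstream of the start was 12868 bp in replicate 1, just over the stitching distance. That gap was 9967 and 9856 bp in replicates 2 and 3, so the next peaks beyond it were joined there. Distal peaks gave 14.7, 38.8 and 31.4% of its signal and own start-site peaks 85.3, 52.3 and 57.5%. Zfp36l1 ranked 1121st, 1377th and 954th, with a region of 4.15, 3.89 and 4.50 kb made up wholly of peaks classed as own. Its strongest peak, which also covers the start of 1300014J16Rik, is among them, because a peak near both starts counts as own. The rank of the region without that peak was not tested.

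**Figure D5:**
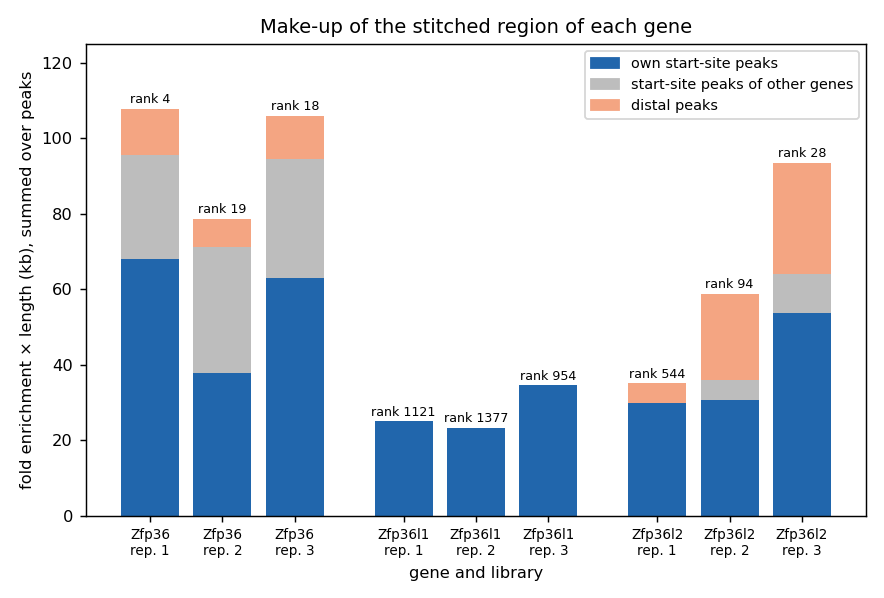
Fold enrichment times length summed over the peaks of the stitched region of each gene (vertical axis, kb) in each library (horizontal axis), split into own start-site peaks, start-site peaks of other genes and distal peaks, with the rank of the region above each bar. Zfp36 has the largest own part in every library, and the distal part is largest for Zfp36l2 in replicates 2 and 3. A peak near an own start and another start counts as own, as does the Zfp36l1 peak over the start of 1300014J16Rik.

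With start-site peaks left out before stitching, Zfp36 and Zfp36l2 were each past the slope point in 2 of 3 libraries and ranked 157th of 4247, 442nd of 4943 and 274th of 3969, and 600th, 52nd and 36th, respectively. No region remained for Zfp36l1.

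The genes most like each member were found by the distance over 9 percentiles, those of start-site fold enrichment, own start-site bases and distal peak number in each of the 3 libraries. For Zfp36 they were Arid5a, an RNA-binding protein gene (distance 11.5), Nudt3 (13.0) and Fnbp1 (14.1). For Zfp36l1 they were Mrps18b (5.96), Ppp1r10 (6.16) and Hist2h2aa1 (6.60), with the same start-site value for Mrps18b and Ppp1r10. For Zfp36l2 they were Capzb (9.13), Erg, a transcription factor gene of haematopoietic stem cells (13.2), and Smad3, a TGF-beta signal transducer gene (14.98). Zfp36 and Zfp36l2 were 30.1 apart, with 77 of the other genes nearer to Zfp36. Zfp36l1 was 110.9 from Zfp36 and 124.96 from Zfp36l2.

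The pathway the family acts through was described from 6 lists of 95 genes without the members. Of the 46 genes of the decay machinery, 45 had a start-site peak in all 3 libraries, against the 43.9% of all protein-coding genes. All 18 deadenylation genes had one, with a median of 16.2-fold against 10.2-fold over all genes with peaks. Cnot7, a catalytic subunit of CCR4-NOT, had 34.2 ± 5.30-fold, and Cnot1, its scaffold that Zfp36 proteins bind, had 27.2 ± 1.39-fold, both above every library value of the 3 members. All 16 genes of decapping and 5′ decay had one (median 12.2-fold), led by Ddx6, a decapping activator helicase gene (31.4 ± 5.14-fold), and Edc3 (25.9 ± 2.07-fold). Of 12 exosome genes 11 had one (median 13.3-fold), led by Exosc10 (35.62 ± 3.497-fold) and Exosc7 (17.5 ± 2.49-fold), and Exosc2 had one in 2 libraries (6.995 and 7.266-fold).

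Of 15 other genes for proteins that bind or cut such mRNAs, 10 had a start-site peak in all libraries (66.7%, against 43.9% of all protein-coding genes, median 17.5-fold). The highest were Zc3h12a, the endonuclease Regnase-1 (29.2 ± 3.77-fold), and Elavl1, which encodes the mRNA-stabilising HuR (22.8 ± 3.21-fold). The 5 with none in any library were Elavl2, Elavl3 and Elavl4, known as neuronal, Zc3h12d and Zfp36l3. Of 14 regulators and partners 12 had one (85.7%, median 19.5-fold), led by Ppp2ca, the phosphatase catalytic subunit gene (30.9 ± 3.92-fold), and Ywhaz, a 14-3-3 gene (30.6 ± 1.65-fold), and Mapk11 and Gigyf1 had none. Of 20 genes known as sources of target mRNAs 10 had one and 8 had none in any library. This share of 50% was near the 43.9% of all protein-coding genes, and the median of 7.05-fold was below the 10.2-fold of all genes with peaks. The highest were Bcl2 (12.0 ± 1.76-fold) and Vegfa (9.61 ± 2.15-fold). Acetylation at a gene is not its mRNA level, which these files do not hold.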

How the data were processed

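H3K27ac ChIP-seq of BcorΔE9-10 KL cells was analysed in 3 libraries, each with 1 deposited peak list. Per the labels, the submitters' processing notes name FastQC, cutadapt 1.7, Bowtie2, MACS2 2.1.1 and deepTools 2.5.3 and the build GRCm38. The authors removed duplicate reads and called narrow peaks in each library separately. The deposited columns hold the fold enrichment (a ratio to local background, with 1 added to both terms), the −log10 p, the −log10 q and a score derived from the −log10 q, with q up to 0.0499. Fragments and background at each summit were solved from fold enrichment and p, which succeeded for 100% of rows once the treatment of replicate 3 was scaled by 0.983.

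Rows that share an interval were merged to 1 peak with its strongest summit. Genes and starts came from GENCODE vM21, reference starts, promoters and genome from RefSeq GRCm38.p6. Peaks within 12.5 kb were stitched. Levels were described as mean ± SD over libraries. Ratios within libraries were tested by exact two-sided sign-flip permutation with Benjamini-Hochberg adjustment. Named genes were the members, Zfp36l3, neighbours, the 3 most like genes per member, the 2 highest genes of each list and, where 6 or fewer, its unmarked genes. Members and lists were chosen with earlier results of these data known. The methods give 3 mice for this genotype without tying them to libraries, so the p-values are taken over libraries. Where all 3 ratios agree in sign the sign-flip p is 0.25 whatever their spread. The other 19 samples of the series were not analysed here. Python 3.11.15, numpy 2.4.6, scipy 1.17.1 and matplotlib 3.10.9 were used, and the scripts were tested on simulated peaks.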

Additional observations from a re-analysis of the deposited data

How the results depend on the processing

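Of 281 values of 36 results under 19 planned settings and 1 added after seeing the data (the summit, not any base, within the start-site distance), 240 kept their direction (ratios), stayed within 1.5 times (counts) or stayed within 1 SD of the libraries (other values). The other 41 follow, and the cause was not tested except where the setting itself shows it. A ratio counted as kept whatever its size if its sign stayed. The log2 ratio of Zfp36 to Zfp36l1, 0.02 as reported, was thus counted as kept at 0.95 with the 1 kb distance. It was also counted as kept at 0.95 with the summit rule and at 0.31 when averaged over own peaks.

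With peaks allowed within 1 kb of a start, Zfp36l1 had 6.85-fold at its start, its log2 ratio to Zfp36l2 became -0.63, and mean distal peaks were 7.33 for Zfp36 and 1 for Zfp36l1. With the summit rule the same Zfp36l1 values, 6.85-fold and -0.63, were found. At 5 kb, mean distal peaks were 2 for Zfp36 and 6.33 for Zfp36l2, and 1 distal region each was in all libraries. Averaged over own peaks, Zfp36 had 9.23-fold and Zfp36l1 7.503-fold, and the log2 ratio of Zfp36l1 to Zfp36l2 was -0.26. Leaving out 1 replicate, the log2 ratio of Zfp36 to Zfp36l1 ran from -0.025 to 0.049 (-0.025 without replicate 1).

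With protein-coding starts alone, Zfp36l1 had 1.67 distal peaks on average and 1 distal region in all libraries. The window of Zfp36l2 held 12.3 peaks with 25 kb on each side and 35.3 with 100 kb, where distal peaks were 27.7 and regions in all libraries 11. With a −log10 q of at least 5, Zfp36l2 had 7.67 peaks and 4.67 distal ones, regions in all libraries were 2 for Zfp36 and 1 for Zfp36l2, and distal percentiles were 97.3 for Zfp36, 38.3 for Zfp36l1 and 98.95 for Zfp36l2. Leaving out 1 replicate, distal regions of Zfp36l2 in all remaining libraries were 6 to 7, with 7 without replicate 2.

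The mean rank percentile of the stitched region of Zfp36 was 99.8 when stitched within 5 kb, 99.7 within 20 kb and 93.5 without start-site peaks, where Zfp36l2 had 94.7. That of Zfp36l1 was 93.4 within 5 kb, 88.6 by summed fold enrichment, 95.1 by peak length and 87.1 at the stricter q, and it was past the slope point in 0 libraries by summed fold enrichment, 1 at the stricter q and 1 to 2 when 1 replicate was left out (1 without replicate 1 or replicate 3). Genes of the target list with a start-site peak in all libraries fell to 6 at the stricter q.

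No paired analysis was possible because the libraries analysed form 1 group, with no second group to pair, and genes were compared within libraries. Every sign-flip p was at or above 0.25, the smallest that 3 libraries allow. Start-site levels as −log10 p or as fragments are in other units and were compared only as ratios or percentiles, and no stitched region of Zfp36l1 remained without start-site peaks. Its start-site level over its best distal peak was 0.65 (log2, 3 libraries) with protein-coding starts alone and 0.49 (2 libraries) with peaks allowed within 1 kb. Protein sequences and the CCCH pattern were not analysed here. Peaks near the threshold held as few as 8 fragments and are the least precise, and the part of depth in which distal regions repeat was not tested.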
